A study of Homo sapiens with 17 samples.

Results

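The AP-1 and immediate early factors described here were 10 genes chosen by symbol: *FOS*, *FOSB*, *FOSL1* and *FOSL2* of the FOS family, *JUN*, *JUNB* and *JUND* of the JUN family, and *ATF3*, *EGR1* and *IER2*. All 10 were found among the 60664 genes of the expression table, and all 10 were among the 15599 genes that averaged at least 10 normalized counts over the libraries and were tested. RNA-Seq was performed on SF8628 cells, an established cell line labelled DIPG (diffuse intrinsic pontine glioma) and described in the study as K27M-mutant diffuse midline glioma (DMG), grown as monolayers with fetal bovine serum. The 4 groups were cells given the vehicle DMSO for 24 hours, DMSO for 48 hours, 1 μM AZD5153 for 24 hours and 1 μM AZD5153 for 48 hours, with 3 libraries in each group. AZD5153 is a small molecule that blocks the bromodomains of the bromo- and extraterminal domain (BET) proteins, which read acetylated histones at active genes. Neither untreated cells nor cells at the start of treatment were among the RNA-Seq samples, all groups came from 1 cell line, and the labels do not say whether the 3 libraries of a group came from separate cultures, so p-values measure the spread between these libraries, which may be technical. The 5 chromatin libraries of the series (CUT&RUN for the histone mark H3K27ac, with an IgG control) were not analysed here.

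AP-1 is a transcription factor made of 2 basic leucine zipper proteins held together as a dimer. FOS proteins pair with JUN proteins, JUN proteins can also pair with each other, and ATF3 can pair with JUN proteins or with itself. *FOS*, *FOSB*, *JUNB*, *EGR1* and *IER2* are examples of immediate early genes, and other members may also be counted as such. Growth factors, serum and stress switch immediate early genes on within minutes through MAPK signalling, by transcription factors already present in the cell. Their mRNAs are short-lived. EGR1 is a zinc finger factor and IER2 a small nuclear protein, so neither is a subunit of AP-1. In gliomas FOSL1 is known for its link to the mesenchymal state.

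The promoters of 9 of the 10 genes could be matched by symbol in the RefSeq promoter table (GRCh38.p14), with 2 starts for *ATF3*, and *FOSL1* had no entry. Windows of 300 bases, from 250 bases before the transcription start to 50 after it, were searched on both strands, and the 250 bases before the start are printed for 4 genes, 5′ to 3′ along the gene's strand, as examples of the elements found. The capitals mark a CArG box, the element bound by serum response factor, in *EGR1*, a TATA box (TATAAA) in *FOS* and *JUNB*, and a cAMP response element (TGACGTCA) in *JUND*. The *EGR1* stretch is chr5:138465229-138465478 on the plus strand, the *FOS* stretch is chr14:75278578-75278827 on the plus strand, the *JUNB* stretch is chr19:12791236-12791485 on the plus strand, and the *JUND* stretch is chr19:18281623-18281872 on the minus strand.
EGR1: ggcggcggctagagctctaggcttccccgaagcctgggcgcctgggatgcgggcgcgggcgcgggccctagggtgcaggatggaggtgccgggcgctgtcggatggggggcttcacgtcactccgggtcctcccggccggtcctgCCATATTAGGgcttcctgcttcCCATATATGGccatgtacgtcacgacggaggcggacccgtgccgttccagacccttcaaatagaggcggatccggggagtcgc
FOS: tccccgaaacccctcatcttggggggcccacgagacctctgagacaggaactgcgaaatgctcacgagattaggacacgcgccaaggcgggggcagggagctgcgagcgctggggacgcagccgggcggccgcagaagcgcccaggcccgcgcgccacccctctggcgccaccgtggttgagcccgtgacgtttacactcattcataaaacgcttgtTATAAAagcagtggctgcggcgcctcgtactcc
JUNB: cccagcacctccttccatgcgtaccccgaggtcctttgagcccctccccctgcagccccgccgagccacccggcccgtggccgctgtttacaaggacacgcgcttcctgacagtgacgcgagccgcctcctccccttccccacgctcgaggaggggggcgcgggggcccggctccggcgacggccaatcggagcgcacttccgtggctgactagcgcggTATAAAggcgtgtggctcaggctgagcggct
JUND: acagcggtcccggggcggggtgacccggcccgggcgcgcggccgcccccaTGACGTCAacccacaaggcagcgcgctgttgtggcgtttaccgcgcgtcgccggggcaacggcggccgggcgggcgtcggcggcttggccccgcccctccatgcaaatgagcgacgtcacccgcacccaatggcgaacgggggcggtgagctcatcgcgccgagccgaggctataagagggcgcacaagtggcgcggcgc

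The 2 CArG boxes of *EGR1* began 105 and 83 bases before the start, and no other member window held one, against 1.29% of the 35116 windows in the table. Only exact matches within the windows were counted. A CArG box or other element further from the start, or with other letters, would be missed in any of the genes, *FOS* included. TATAAA was present in 4 of the 10 member windows and in 11.5% of all windows. In *FOS*, *FOSB* and *JUNB* it began 33, 30 and 31 bases before the start, and in the second *ATF3* window 230 bases before it. The cAMP response element was present in the *JUND* window alone among the members, 200 bases before the start, and in 1.85% of all windows. The AP-1 site TGAGTCA was found once, just after the *FOSL2* start at bases 4 to 10, and in 4.95% of all windows. The GC box GGGCGG was in 7 of the 10 member windows and in 45% of all windows, and the EGR site GCGTGGGCG was in 0 of 10 and in 0.795% of all. These 6 motifs did not overlap one another in the member windows. A match of letters is a description of the window and not a measurement of binding.

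**Figure D1:**
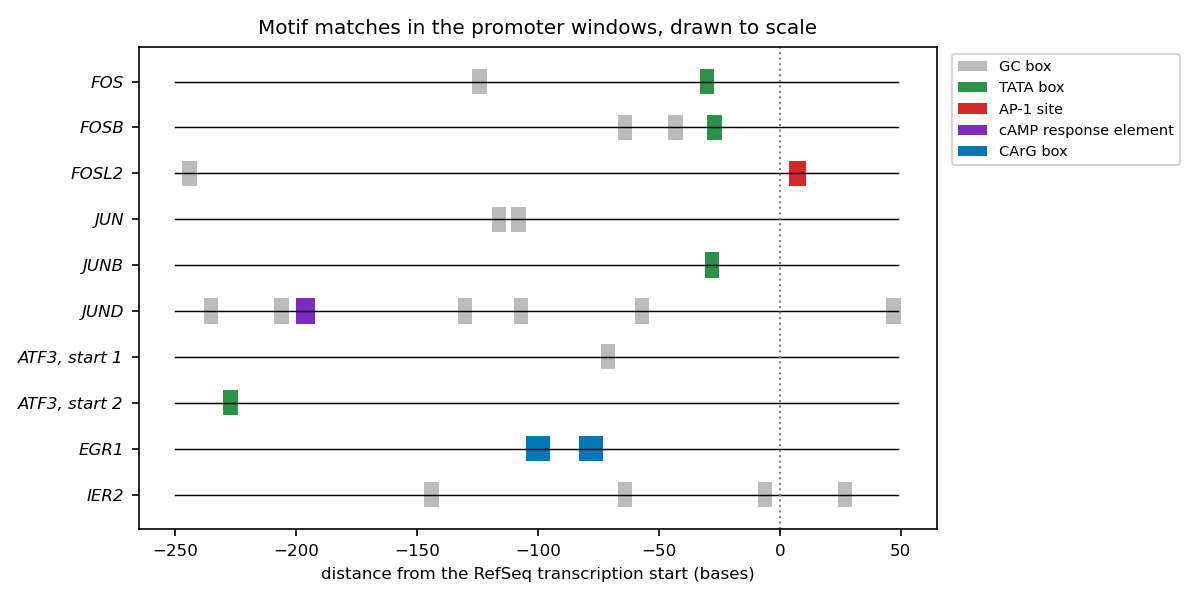
Motif matches in the RefSeq promoter windows of 9 of the genes, with distance from the transcription start in bases on the horizontal axis and 1 line for each window. TATA boxes sit near 30 bases before the start in *FOS*, *FOSB* and *JUNB*, both CArG boxes are in *EGR1*, and the cAMP response element is in *JUND*.

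The members also shared a low number of exons, which did not enter their choice by symbol. The FOS genes and the JUN genes are families, so the 10 members are not independent examples. All 10 had at most 4 exons in the GENCODE 44 canonical transcript, against 20% of 12724 protein-coding genes tested, and *JUN*, *JUNB* and *JUND* had 1 exon, against 2.01%. At least 1 copy of ATTTA, the pentamer of AU-rich mRNA decay elements, was present in the 3′ untranslated region of 9 of 10 members, the exception being *IER2*, and in 74% of the same protein-coding genes. *FOSL2* had 9 copies and *FOS* 5. Per kilobase of 3′ untranslated region the members had a median of 1.62 copies, against 1.78 for the protein-coding genes tested.

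Between 15759148 and 27335220 reads fell on genes in each library, so the scarcest member, *FOSB*, still had a mean of 39.3 normalized counts (reads divided by the library's DESeq2 size factor). DMSO 24-hour replicate 1 stood apart from the other DMSO 24-hour libraries: the chi-square per degree of freedom across genes was 16.8 and 25.6 for the pairs with it, against 4.97 for the pair without it and 2.12 to 5.21 in the other groups. It had the lowest DMSO 24-hour value of 9 of the 10 members, all but *FOSB*. It thus moved their 24-hour log2 fold changes upward together, and these are not independent of one another. Values without it are given where they change a call and for some other results. Among glioma markers, *OLIG1* and *OLIG2* were at 0 in all 12 libraries and *PDGFRA* and *SOX10* averaged under 10 normalized counts, so the oligodendrocyte lineage factors often used to mark DIPG were absent or nearly so, while *VIM*, *CD44*, *NES* and *SOX2* were measured. Of the 7 glioma markers tested, 1 was higher and 4 were lower in AZD5153 at 24 hours and 1 was higher and 3 were lower at 48 hours, with log2 fold changes of −2.23 and −1.76 for *CSPG4*, −1.43 and −1.87 for *NES*, −0.60 and −0.30 for *SOX2* and 0.17 and 0.53 for *CD44*. Of markers of other cell types, *CDH5*, *CD3E*, *AIF1*, *KRT5* and *STMN2* were at 0 in every library. Other marker lists also moved with treatment, and 1 or a few genes carried most of each sum. Of the endothelial and mural list *PDGFRB* made up most of the sum, with means of 3217 and 4383 normalized counts in DMSO and 821 and 1089 in AZD5153 at 24 and 48 hours, while of its 6 tested genes 4 were lower and *KDR* was higher at 24 hours (log2 fold change 1.10, adjusted p = 0.041). The summed level of all 8 genes was 3474 to 5232 in DMSO libraries and 911 to 1205 in AZD5153 libraries. Of the 8 leukocyte markers (sums of 183 to 229 in DMSO and 38.3 to 60.8 in AZD5153) 6 averaged under 10 normalized counts. *CSF1R* was nearly all of the sum in DMSO, with means of 189 and 197 at 24 and 48 hours. In AZD5153 *CSF1R* was at 27.9 and 34.9, beside 16.9 and 12.8 for *CD14*. The sum of 7 neuron markers was 716 to 905 in DMSO and 1085 to 1272 in AZD5153, with *TUBB3* going from a mean of 22.6 to 402 at 24 hours, while *SNAP25* was lower at both times (33.3 to 11.5 and 51.9 to 19.7). The sum of 6 epithelial markers was 1054 to 1170 in DMSO and 1220.1 to 1318 in AZD5153 at 24 hours and 1285 to 1431 and 1631 to 1873 at 48 hours. *KRT18* was higher at both times (log2 fold change 0.32 and 0.57), while *KRT19* was lower at 24 hours (−1.32) and *KRT8* at 48 hours (−0.38). The part of these in the results below was not tested. In bulk RNA, fewer cells that express a gene and less of its RNA per cell cannot be told apart.

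The first comparison asked how blocking BET bromodomains for 24 hours changed the 10 genes. Of the 10, 8 were higher in AZD5153 than in DMSO, 1 (*FOSL2*) was lower and 1 (*JUN*) did not pass the threshold (limma on log2(normalized count + 1), all 4 groups in 1 fit, Benjamini-Hochberg adjusted p under 0.05 over all genes tested). The background is high: 68.5% of all genes tested passed at 24 hours. As shares of all genes tested, 33.9% were higher and 34.6% lower, and the counts of members are to be read against these. The median log2 fold change was 1.06 for the 10 members and 0.00 for all genes tested. The size factors bring the typical gene close to 0 by their construction. The members' values are thus relative to the typical gene, and a shift common to all genes would not be seen. For 8 members the AZD5153 and DMSO libraries did not overlap at 24 hours, as for 68.8% of all genes.

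At 48 hours the members had come apart. *FOS*, *JUND*, *JUN* and *EGR1* were higher in AZD5153, *FOSL2*, *IER2* and *FOSL1* were lower, and *ATF3*, *JUNB* and *FOSB* did not pass the threshold. These 4 higher and 3 lower calls compare with 33.1% and 33.9% of all genes, so at 48 hours the members' share of calls, 7 of 10 against 67%, was near the background. Their median log2 fold change was 0.15, and 7 had no overlap between AZD5153 and DMSO libraries, against 74.7% of all genes. On the mean of both times 8 were higher, *FOSL2* was lower and *FOSL1* did not pass, against 75.8% of all genes called (37.7% higher and 38% lower). *FOS*, *JUND* and *EGR1* were called higher at both times, as were 26% of all genes, and *FOSL2* was called lower at both, as were 27.1%. No member was lower at 24 and higher at 48 hours, a pattern of 0.974% of all genes.

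The difference between the times was tested itself, as the interaction of treatment and time. The AZD5153 effect was smaller or more negative at 48 than at 24 hours for 8 of the 10 members, larger for *JUN*, and not distinguishable for *JUND*. Without DMSO 24-hour replicate 1 the *JUND* difference also passed, with 2 members larger and 8 smaller or more negative. Over all genes tested, 10.1% passed in the negative direction and 14.4% in the positive direction. *FOSL1* and *IER2* were higher at 24 and lower at 48 hours, a pattern shown by 0.647% of all genes tested. Their calls at 48 hours were lost under 5 of the alternative settings for *FOSL1* and 6 for *IER2*.

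**Figure D2:**
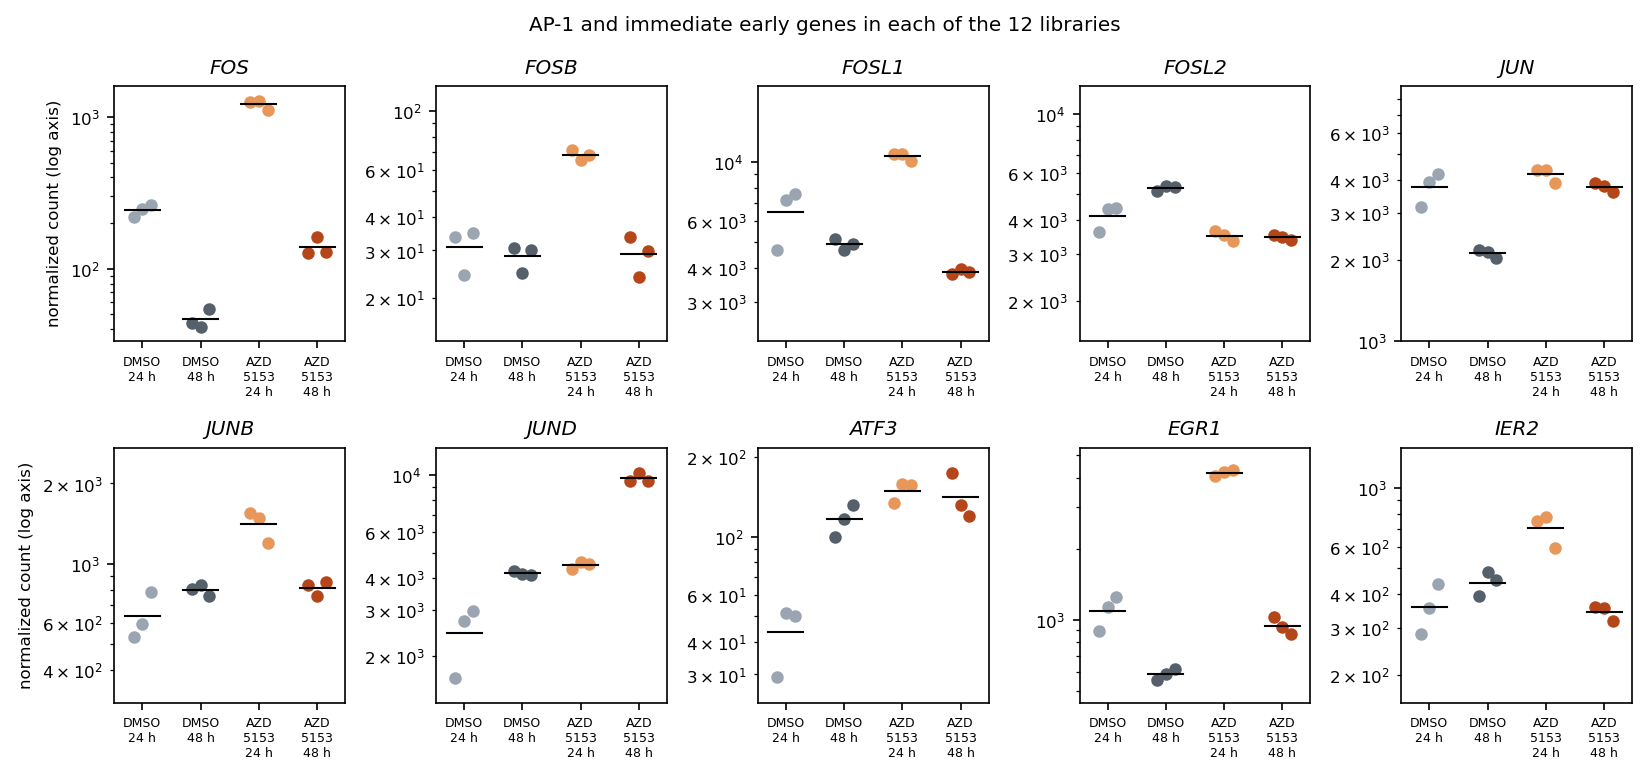
Normalized counts of the 10 genes in each of the 12 libraries, 1 panel per gene with a log vertical axis of its own range; points are libraries and lines are group means. The AZD5153 24-hour libraries are the highest group for *FOS*, *FOSB*, *FOSL1*, *JUNB*, *EGR1* and *IER2*, and the AZD5153 48-hour libraries are the highest for *JUND*.

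**Figure D3:**
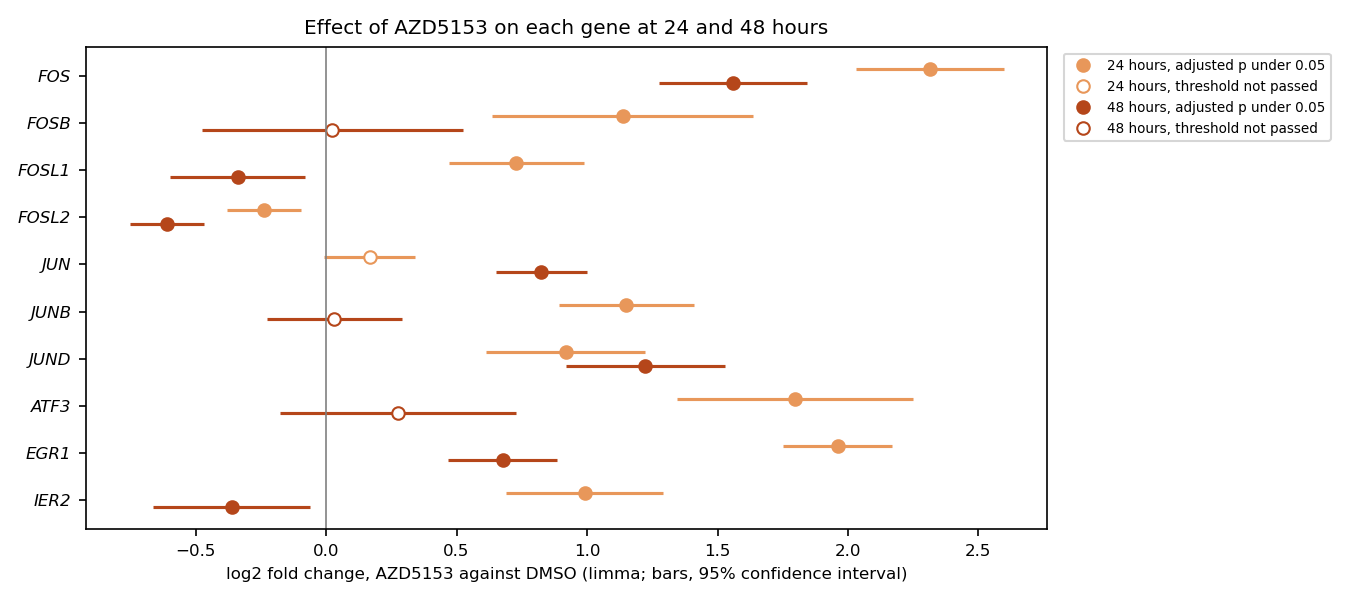
Log2 fold change of AZD5153 against DMSO for each gene at 24 and 48 hours, with 95% confidence intervals from limma (n = 3 libraries per group); filled points passed an adjusted p of 0.05. Except for *JUN* and *JUND*, each gene's 48-hour point lies to the left of its 24-hour point.

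*FOS* (ENSG00000170345, chr14:75278826-75282230, GRCh38), the founding FOS family member and the textbook immediate early gene, had the largest rise among the 10 at both times. At 24 hours it was at 221, 247 and 263 normalized counts in DMSO and at 1247, 1281 and 1115 in AZD5153, groups far apart, and the fold was 4.97 (log2 fold change 2.31 ± 0.13 SE, adjusted p = 3.1e-10). Its 48-hour levels were 44.1, 41.7 and 54.0 in DMSO and 127, 162 and 129 in AZD5153, again with no overlap, and the fold was 2.95 (1.56 ± 0.13, adjusted p = 3.6e-08). Every AZD5153 library at 48 hours was thus higher than the DMSO libraries of its own time and lower than every DMSO library at 24 hours. The difference between the effects was −0.75 ± 0.19 (adjusted p = 0.0086 by limma), and it did not pass with quantile normalization of the libraries (−0.45, adjusted p = 0.0926).

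*FOSB* (ENSG00000125740, chr19:45467995-45475179), a close relative of *FOS* that is also induced by stimulation, was scarce. At 24 hours it was at 33.8, 24.2 and 34.8 normalized counts in DMSO and 71.1, 65.5 and 68.5 in AZD5153, groups that did not overlap (log2 fold change 1.14 ± 0.24 SE, adjusted p = 0.00049 by limma). At 48 hours it was at 30.6, 24.8 and 30.2 in DMSO and 33.7, 23.9 and 29.9 in AZD5153, and the groups overlapped (0.02, 95% confidence interval −0.48 to 0.52). The rise was thus seen at 24 hours and the levels of the other 3 groups were alike in range. The difference between times (−1.11 ± 0.33, adjusted p = 0.024) lost its call without DMSO 24-hour replicate 2, DMSO 48-hour replicate 1, AZD5153 24-hour replicate 1 or AZD5153 48-hour replicate 2 (−0.95 to −1.09, adjusted p from 0.0516 to 0.0584), and also with no minimum mean (adjusted p = 0.0723) or with quantile normalization (0.0538). *FOSB* lies wholly within the span of *ERCC1* on the opposite strand, with no exon in common, and the strand setting of the counting is not given in the sources used here. At 24 hours *ERCC1* was itself at 723 ± 15.5 (DMSO) and 635 ± 54.8 (AZD5153) counts (mean ± SD, n = 3).

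*FOSL1* (ENSG00000175592, chr11:65892049-65900573), which encodes FRA-1, was the most abundant FOS family gene per kilobase of exon. In DMSO at 24 hours its 3 libraries were spread, at 4681, 7185 and 7573 normalized counts, with replicate 1 the low one, and AZD5153 lay above them all at 10724, 10744 and 10065 (log2 fold change 0.73 ± 0.12 SE, adjusted p = 6.5e-05 by limma). At 48 hours the order was turned, with 5168, 4664 and 4924 in DMSO and 3821, 3968 and 3870.0 in AZD5153 (−0.34 ± 0.12, adjusted p = 0.022). The 48-hour groups did not overlap, but the call was lost without DMSO 48-hour replicate 1 or 3 or without AZD5153 48-hour replicate 1 or 3 (−0.30 to −0.34, adjusted p from 0.0537 to 0.0762), each of which leaves 2 libraries in a group. The difference between times was −1.07 ± 0.17 (adjusted p = 0.00038). With 1 library left out at a time, the 24-hour log2 fold change ranged from 0.51 to 0.86. On the mean of both times *FOSL1* lay at the threshold and did not pass (0.20 ± 0.09, adjusted p = 0.05). It passed with a pseudocount of 10 (adjusted p = 0.0476) or TMM scaling (0.0495), and also without DMSO 24-hour replicate 1 (0.09, adjusted p = 0.0154), 2 (0.24, adjusted p = 0.0222) or 3 (0.26, adjusted p = 0.00509).

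*FOSL2* (ENSG00000075426, chr2:28392448-28417317), which encodes FRA-2, was the member that was lower in AZD5153 at both times. The 24-hour libraries were at 3608, 4412 and 4434 normalized counts in DMSO and 3636, 3531 and 3348 in AZD5153, where DMSO replicate 1 fell within the AZD5153 range (log2 fold change −0.24 ± 0.07 SE, adjusted p = 0.0053 by limma). By 48 hours *FOSL2* was at 5124, 5359 and 5316 in DMSO and 3515, 3457 and 3376 in AZD5153, with no overlap (−0.61 ± 0.07, adjusted p = 7.4e-07). The 6 AZD5153 libraries lay close together and the difference between the effects, −0.37 ± 0.10 (adjusted p = 0.01), went with a rise in DMSO from 24 to 48 hours.

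*JUN* (ENSG00000177606, chr1:58776845-58784048), the partner with which FOS makes the classical AP-1 dimer, was the one member whose effect was called larger at 48 than at 24 hours. At 24 hours it was at 3170, 3906 and 4204 normalized counts in DMSO and 4364, 4330.0 and 3897 in AZD5153, with overlap (log2 fold change 0.17 ± 0.08 SE, adjusted p = 0.082 by limma). It passed at 24 hours without DMSO replicate 3 (0.25, adjusted p = 0.00769) or without AZD5153 replicate 3 (0.22, adjusted p = 0.0441), whereas without DMSO replicate 1 the value was 0.05 and did not pass. At 48 hours it was at 2182, 2139 and 2044 in DMSO and 3875, 3787 and 3612 in AZD5153, groups well apart (0.82 ± 0.08, adjusted p = 2.1e-07). The AZD5153 libraries at 48 hours were within the range of the DMSO libraries at 24 hours, and it was the DMSO libraries at 48 hours that were low. The difference between times was 0.66 ± 0.12 (adjusted p = 0.00075).

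*JUNB* (ENSG00000171223, chr19:12791486-12793315), a JUN family member that is induced early and can oppose JUN, was, like *FOSB*, called higher at 24 hours and not called at 48 hours. In the 24-hour libraries it was at 533, 597 and 785 normalized counts in DMSO and 1549, 1483 and 1196 in AZD5153, without overlap (log2 fold change 1.15 ± 0.12 SE, adjusted p = 4.5e-07 by limma). The 48-hour libraries were at 803, 832 and 759 in DMSO and 834, 761 and 853 in AZD5153, and the groups covered the same range (0.03, 95% confidence interval −0.23 to 0.29). The difference was −1.12 ± 0.17 (adjusted p = 0.00025). *JUNB* shares 259 exonic bases with *HOOK2* on the opposite strand, and reads there cannot be assigned if strand was not used. The mean count of *HOOK2* was 352 ± 66.6 (DMSO) and 353 ± 43.3 (AZD5153) at 24 hours, and 605 ± 37.2 (DMSO) and 368 ± 20.8 (AZD5153) at 48 hours (SD, n = 3).

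*JUND* (ENSG00000130522, chr19:18279694-18281622), the JUN family member known for its steady presence in resting cells, was higher in AZD5153 at both times. At 24 hours it was at 1650.1, 2728 and 2987 normalized counts in DMSO, where replicate 1 was far below the others, and at 4345, 4625 and 4521 in AZD5153 (log2 fold change 0.92 ± 0.14 SE, adjusted p = 3.3e-05 by limma). By 48 hours it had reached 4256, 4147 and 4090.1 in DMSO and 9510, 10201 and 9482 in AZD5153, the highest level of any group (1.22 ± 0.14, adjusted p = 1.5e-06). Neither time had overlap between the groups. The difference between the effects was 0.31 ± 0.20 (adjusted p = 0.3, 95% confidence interval −0.13 to 0.74) with all libraries, and 0.57 (adjusted p = 1.85e-07) without DMSO 24-hour replicate 1. With 1 library left out at a time, the 24-hour log2 fold change ranged from 0.66 to 1.08.

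*ATF3* (ENSG00000162772, chr1:212565334-212620777), a stress-induced factor of the ATF/CREB group, was at 29.3, 51.2 and 49.9 normalized counts in DMSO at 24 hours and at 134, 158 and 157 in AZD5153, with a fold of 3.47 and no overlap (log2 fold change 1.80 ± 0.21 SE, adjusted p = 1.7e-06 by limma). At 48 hours it was at 100.0, 117 and 132 in DMSO and 174, 131 and 120 in AZD5153. These overlapped (0.28, 95% confidence interval −0.18 to 0.73, adjusted p = 0.27; 0.12 without AZD5153 48-hour replicate 1 and 0.17 without DMSO 48-hour replicate 1), with AZD5153 means of 149 at 24 and 142 at 48 hours beside DMSO means of 43.5 and 116. The call at 48 hours depended on scaling, since quantile normalization gave 0.63 (adjusted p = 0.0147) and scaling to equal totals 0.10 (adjusted p = 0.68). The difference between times, −1.52 ± 0.30 (adjusted p = 0.0018), was the largest among the 10 genes.

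*EGR1* (ENSG00000120738, chr5:138465479-138469303), the gene with the 2 CArG boxes printed above, was next to *FOS* in its rise at 24 hours. It was at 892, 1130.3 and 1245 normalized counts in DMSO and at 4079, 4237 and 4294 in AZD5153, with a fold of 3.89 (log2 fold change 1.96 ± 0.10 SE, adjusted p = 6.6e-11 by limma). At 48 hours it was at 555, 588 and 618 in DMSO and at 1021, 932 and 866 in AZD5153, still with no overlap but with a fold of 1.60 (0.68 ± 0.10, adjusted p = 1.6e-05). As for *FOS*, both treatments were lower at 48 than at 24 hours. Unlike those of *FOS*, the AZD5153 libraries at 48 hours overlapped the DMSO libraries at 24 hours. The difference between times was −1.28 ± 0.14 (adjusted p = 1.2e-05).

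*IER2* (ENSG00000160888, chr19:13150411-13154911) was at 285, 356 and 438 normalized counts in DMSO at 24 hours and at 755, 781 and 595 in AZD5153 (log2 fold change 0.99 ± 0.14 SE, adjusted p = 1.3e-05 by limma). At 48 hours AZD5153, at 360.2, 354 and 317, lay below DMSO, at 393, 483 and 452 (−0.36 ± 0.14, adjusted p = 0.034). The groups did not overlap at either time, and their order was opposite. The lower level at 48 hours lost its call without DMSO 48-hour replicate 2 or 3 or AZD5153 48-hour replicate 2 or 3 (−0.30 to −0.38, adjusted p from 0.0548 to 0.124). The difference between times was −1.35 ± 0.20 (adjusted p = 0.00018). On the opposite strand *IER2* shares 946 exonic bases with the noncoding gene ENSG00000267598 and 662 with ENSG00000287296. Both were at 0 in every library, and reads there cannot be assigned if strand was not used.

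The change from 24 to 48 hours was then compared within each treatment. These comparisons share the DMSO 24-hour and other libraries with those above and are given as values side by side. In DMSO, 4 members fell (*FOS*, *EGR1*, *JUN*, *FOSL1*), 4 rose (*ATF3*, *JUND*, *FOSL2*, *JUNB*) and *FOSB* and *IER2* did not pass, against 35.7% of all genes called (19.3% lower and 16.4% higher). *FOS* fell by 2.37 on the log2 scale (± 0.13 SE, adjusted p = 8.8e-09 by limma), which placed it at position 3 among the decreases of all 15599 genes. *EGR1* fell by 0.88 and *JUN* by 0.82, with no overlap between the times, whereas *ATF3* rose by 1.43 and *JUND* by 0.81. *FOSL2* rose by 0.35. The libraries of the 2 times did not overlap for these 6 members, as for 46.5% of all genes.

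The remaining 2 DMSO calls were lost under several settings. *JUNB* rose by 0.34 (adjusted p = 0.04) with overlapping libraries, and the call was lost when any of 7 libraries was left out: DMSO 24-hour replicate 1 or 2, DMSO 48-hour replicate 1, 2 or 3, or AZD5153 48-hour replicate 1 or 3 (0.22 to 0.38, adjusted p from 0.0513 to 0.121). With all libraries kept it was also lost with no minimum mean (adjusted p = 0.0629), without trend (0.0967) and in a fit of the compared groups only (0.0785). *FOSL1* fell by 0.37 (adjusted p = 0.028), also with overlap. Its call was lost without DMSO 24-hour replicate 2 (−0.28) or 3 (−0.24) or DMSO 48-hour replicate 2 (−0.33) or 3 (−0.37), with adjusted p from 0.0684 to 0.12, and without DMSO 24-hour replicate 1 the value was −0.59. It was lost as well with scaling to equal totals (−0.31, adjusted p = 0.0505) and quantile normalization (−0.25, adjusted p = 0.117), and, at the same value of −0.37, without trend (adjusted p = 0.0926) and in a fit of the compared groups only (0.1). *IER2*, at 0.32 with all libraries (adjusted p = 0.095), passed without DMSO 24-hour replicate 3 (0.47, adjusted p = 0.0101) and was at 0.16 without DMSO 24-hour replicate 1.

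In AZD5153, 6 members fell from 24 to 48 hours, *JUND* rose, and *JUN*, *FOSL2* and *ATF3* did not pass, against 29.7% of all genes called (13.8% lower and 15.8% higher). *FOS* fell by 3.12 (adjusted p = 2.8e-10) and *EGR1* by 2.16 (adjusted p = 6.5e-10), at positions 7 and 31 among the decreases of all genes. *FOSL1* fell by 1.43, *FOSB* by 1.21, *IER2* by 1.04 and *JUNB* by 0.78, each with no overlap between times. With *JUN* and *JUND*, 8 members had no overlap, against 47.2% of all genes. *JUND* rose by 1.11 (adjusted p = 3.3e-05), from 4345 to 4625 at 24 hours to 9482 to 10201 at 48 hours. *JUN* was lower by 0.16 with no overlap between times (adjusted p = 0.16), and it passed without DMSO 24-hour replicate 1 (adjusted p = 0.0108), which enters that value through the shared estimate of spread alone, and in a fit of the compared groups only (adjusted p = 0.00819).

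Levels of different genes were compared per kilobase of exon (union of GENCODE 44 exons), each as a mean over 3 libraries. *FOSL1* led in 3 groups, with 3434 ± 832 (SD) normalized counts per kilobase in DMSO at 24 hours, 2607 ± 134 in DMSO at 48 hours and 5570.0 ± 205 in AZD5153 at 24 hours. In AZD5153 at 48 hours *JUND* led, with 5045 ± 211 against 2059 ± 39.8 for *FOSL1*. *FOSB* was last in all 4 groups, from 5.14 ± 0.58 to 12.3 ± 0.50 per kilobase. *EGR1* stood at position 3 in AZD5153 at 24 hours (1340 ± 35.5) and at position 6 in the other groups. Neighbours in the order whose libraries overlapped were *JUND* and *JUN*, and *JUNB* and *EGR1*, in DMSO at 24 hours, and *FOS* and *ATF3* in AZD5153 at 48 hours.

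*FOSL1* made up 77.5% to 86.3% of the summed FOS family level in the group means, so *FOS* was a small part of it even at its highest (5.90% in AZD5153 at 24 hours). At 24 hours the summed FOS family level per kilobase was 4096 ± 903 (SD, n = 3) with vehicle against 6453 ± 251 with AZD5153, and at 48 hours 3362 ± 119 against 2590.1 ± 43.9. The summed JUN family level was 2659 ± 575 against 4259 ± 169 at 24 hours, and 3180.4 ± 75.3 against 6527 ± 196 at 48 hours. *JUND* made up 47.3% and 54.8% of it at 24 hours and 67.9% and 77.3% at 48 hours, in DMSO and AZD5153. At 24 hours the ratio of the FOS sum to the JUN sum was 1.54 ± 0.05 with vehicle against 1.52 ± 0.02 with AZD5153, and the libraries overlapped. By 48 hours the ratios were 1.06 ± 0.04 and 0.397 ± 0.006, with no overlap. These are levels of RNA and not of protein or of dimers, and sums and ratios were not tested.

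**Figure D4:**
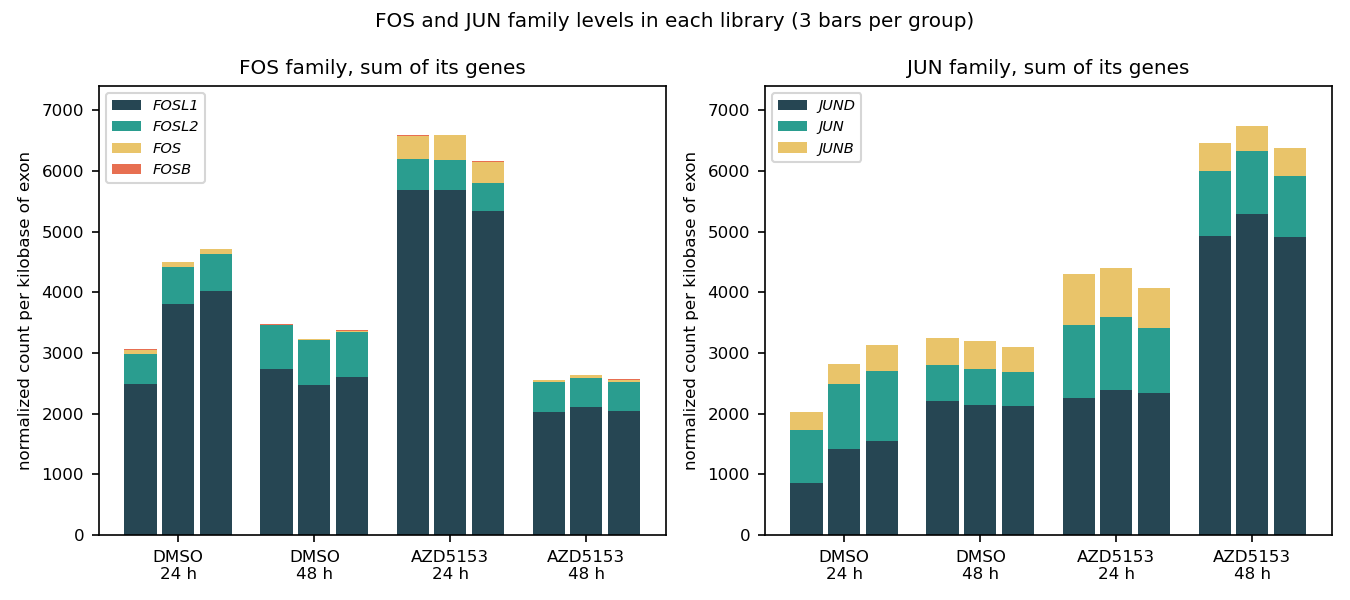
Summed normalized counts per kilobase of exon of the FOS family (left) and JUN family (right), 1 stacked bar per library with replicates 1 to 3 from left to right in each group. The FOS family bars are tallest in AZD5153 at 24 hours (6163 to 6600), mostly *FOSL1*, and the JUN family bars are tallest in AZD5153 at 48 hours (6378 to 6749), mostly *JUND*.

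For each member, the genes with the most similar course over the 4 group means were found by the root mean square difference of centred log2 values, among 10857 genes with a symbol and a mean of at least 100 normalized counts. *JUND* was closest to *MCAM* (difference 0.03) and *NR2F1* (0.07), *FOSL2* to *ZNF382* (0.01) and *ZNF512B* (0.02), and *JUN* to *WDR77* (0.04) and *PPAT* (0.07). *IER2* was closest to *ST3GAL1* (0.06) and *NAB2* (0.13), *JUNB* to *DUSP5* (0.07) and *CLCN5* (0.08), *FOSL1* to *PPP1R15A* (0.09) and *APCDD1L-DT* (0.13), *FOSB* to *CLCF1* (0.11) and *C11orf68* (0.15), and *ATF3* to *DACT3* (0.12) and *PKD1P3* (0.14). No gene came near *FOS*, whose closest were *CCN2* (0.63) and *EGR1* (0.70), nor so near *EGR1*, whose closest were *SEMA7A* (0.29) and *TFPI2* (0.37).

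Other genes of the pathway were described from lists chosen by function, by counts and by the members with the largest changes over both times. The counts are to be read against all genes tested, of which 33.9% were higher and 34.6% lower at 24 hours and 33.1% and 33.9% at 48 hours. Among 28 tested immediate early genes outside the 10, 15 were higher and 8 lower in AZD5153 at 24 hours, with a median log2 fold change of 0.78, and 12 were higher and 10 lower at 48 hours, with a median of 0.05. *ZFP36*, which encodes a protein that promotes decay of AU-rich mRNAs, went from 255 ± 70.6 normalized counts with vehicle to 3598 ± 378 with AZD5153 at 24 hours (mean ± SD, n = 3; log2 fold change 3.85). Its 48-hour levels were 370.3 ± 21.3 and 2502 ± 114 (2.75). *RHOB*, a small GTPase, was higher by 1.93 and 3.09, while *PLK2*, a polo-like kinase (−1.48 and −1.71), and *ZFP36L1*, a relative of *ZFP36* (−0.52 and −1.81), were lower.

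Of 12 other basic leucine zipper factors tested, which can join AP-1 or its relatives, 3 were higher and 4 lower at 24 hours (median −0.13), and 1 was higher and 7 lower at 48 hours (median −0.37). Over all genes tested, 68.5% at 24 hours and 67% at 48 hours were called in either direction. *ATF1*, a CREB relative, had log2 fold changes of −1.36 and −1.13 and *ATF2*, a partner of JUN, of −0.49 and −0.36, at 24 and 48 hours. *ATF7* was higher at both times (0.43 and 0.39), although with scaling to equal totals it did not pass at 48 hours (0.22, adjusted p = 0.0542). *MAFK*, a small MAF protein, was higher at 24 hours (0.75, adjusted p = 0.0032, and 0.43 without DMSO 24-hour replicate 1) and was at −0.11 at 48 hours (adjusted p = 0.64).

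Upstream of AP-1, 12 of 24 MAPK pathway kinases and nuclear effectors were higher and 9 lower at 24 hours (median 0.16), and 11 were higher and 7 lower at 48 hours (median 0.11), against 68.5% and 67% of all genes called in either direction. *MAP2K3*, a kinase that activates p38, had 1621 ± 203 normalized counts with vehicle and 6535 ± 126 with AZD5153 at 24 hours (mean ± SD, n = 3; log2 fold change 2.02), and its log2 fold change at 48 hours was 1.95. *RPS6KA1*, the ribosomal S6 kinase RSK1, was higher by 1.08 and 1.24. *MAPK3*, which encodes ERK1, was lower (−1.28 and −1.99), as was *MAPK10*, a JNK gene (−0.65 and −1.12). Of 16 feedback inhibitors of the pathway, 3 were higher and 6 lower at 24 hours, and 3 were higher and 8 lower at 48 hours, which is not above the share of all genes called (68.5%) at 24 hours and is close to it (67%) at 48 hours. The phosphatase genes *DUSP1* (1.73 and 1.25) and *DUSP6* (1.44 and 0.81) were higher, and *SPRED2* (−0.86 and −0.99) and *SPRED3* (−1.20 and −1.46), which restrain RAF activation, were lower.

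Among textbook AP-1 target genes, 6 of 17 tested were higher and 9 lower at 24 hours, and again 6 and 9 at 48 hours, with medians of −0.35 and −0.65, against 68.5% and 67% of all genes called in either direction. *MMP1*, the interstitial collagenase, dropped from 248.7 ± 32.7 normalized counts with vehicle to 15.2 ± 2.01 with AZD5153 at 24 hours (mean ± SD, n = 3; log2 fold change −3.94), and its 48-hour levels were 230.3 ± 17.5 and 3.02 ± 1.77 (−5.96). *LIF*, a cytokine of the interleukin 6 family, was lower by a log2 fold change of −2.53 and −4.96. *HBEGF*, a ligand of the EGF receptor, was higher (1.73 and 2.36), as was *TIMP1*, an inhibitor of metalloproteinases (1.16 and 1.25). The list thus held changes in both directions at both times.

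Heat shock genes, which respond to handling and to protein stress, were measured beside the members. Of 10 tested, 3 were higher and 4 lower at 24 hours (median 0.01), and 6 were higher and 3 lower at 48 hours (median 0.40), against 68.5% and 67% of all genes called. In DMSO, 8 of the 10 fell from 24 to 48 hours and 1 rose (median −0.51), against 19.3% and 16.4% of all genes, beside the fall of *FOS*, *EGR1* and *JUN* there, and the part of handling in those was not tested. *HSP90AA1*, the inducible HSP90 gene, was higher by 0.96 and 1.28, and *BAG3*, a co-chaperone, by 0.84 and 0.77, whereas *HSPB1* (−0.68 and −0.91) and *HSPE1* (−0.87 and −0.41) were lower. With quantile normalization *HSP90AA1* at 24 hours was at −0.12. The *HSPE1* call at 48 hours (adjusted p = 0.041) was lost without any of DMSO 48-hour replicates 1, 2 and 3, AZD5153 24-hour replicate 2 or AZD5153 48-hour replicates 1 and 3 (−0.36 to −0.46, adjusted p from 0.0514 to 0.125). With all libraries kept it was lost with quantile normalization (−0.26, adjusted p = 0.2), with no minimum mean (adjusted p = 0.06) and without trend (0.0941). *HSPA1A* and *HSPA1B*, near-identical copies between which reads may not be assigned, averaged under 1 normalized count.

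**Figure D5:**
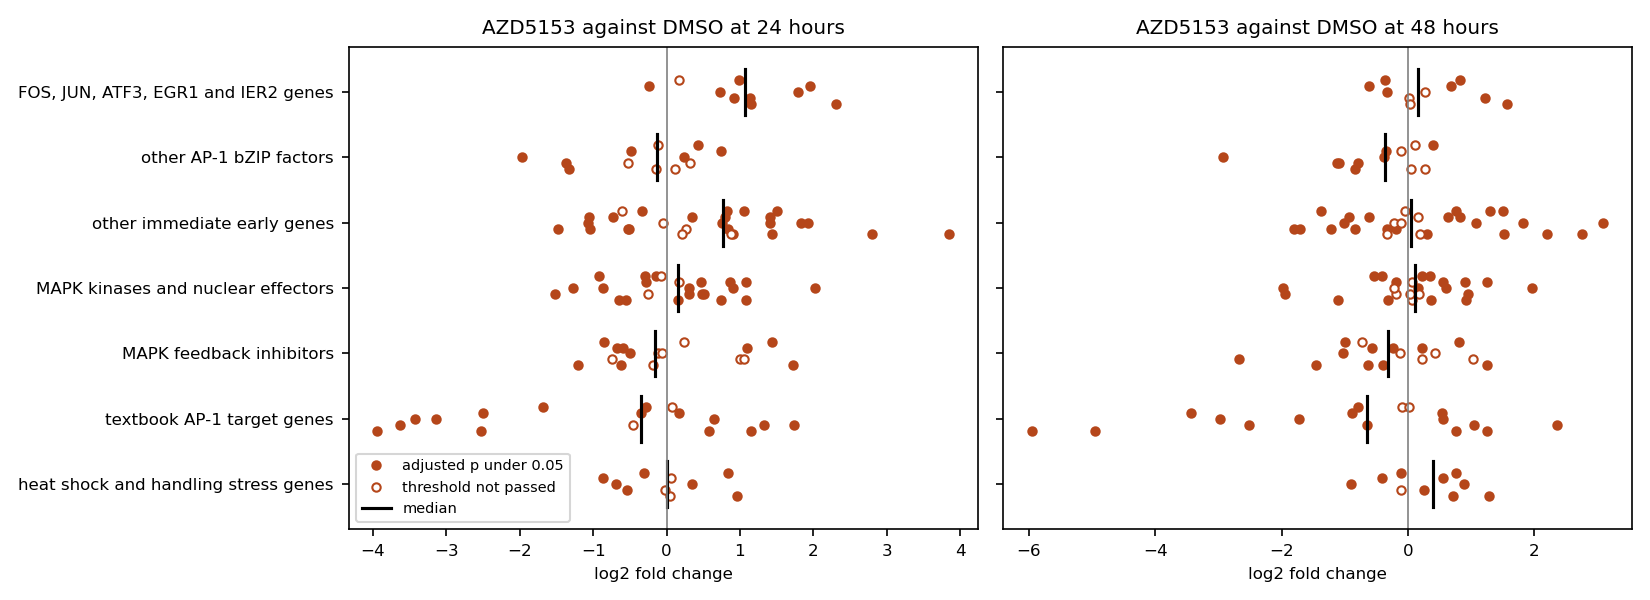
Log2 fold change of AZD5153 against DMSO at 24 hours (left) and 48 hours (right) for the 10 genes, in the top line, and for the genes tested of 6 pathway lists; each point is 1 gene, filled where the adjusted p was under 0.05, and the black bar is the median. The horizontal axes of the panels differ in range. The top line has a median of 1.06 at 24 hours and 0.15 at 48 hours.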

How the data were processed

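RNA-Seq was measured in 12 libraries of SF8628 cells, and groups were taken from the library titles. According to the study's methods and the submitters' processing notes, the authors used STAR for alignment of the paired-end reads (hg38), HTSeq for counting and then DESeq2. Versions, annotation and strand setting are not given in the sources used here. The deposited values are normalized counts, a signal that is the read count divided by a DESeq2 size factor. In every library 100% of values gave whole reads (within 0.01), so the reads were recovered for count tests. The same table also holds the authors' comparison (mean, log2 fold change, its error, statistic and p-values), which was not used.

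Tests covered genes that averaged 10 normalized counts or more and used limma 3.58.1 (lmFit, eBayes with trend) on log2(normalized count + 1), with 4 group means in 1 fit and Benjamini-Hochberg adjustment at 0.05. Fold changes are on that scale, which understates changes of scarce genes. The members and gene lists were chosen with earlier results of these data known, so no set test was made and no p-value was adjusted over a list alone. All members are named. Of each list the 2 largest increases and 2 largest decreases among called genes with a mean of at least 100 are named, and the overlapping genes and library exclusions named elsewhere follow from the annotation and from calls that changed. Markers named were chosen after their values were seen, and results for other markers are not reported here. Gene positions and lengths are from GENCODE 44. Protein sequences were not used here.

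Alternatives were pseudocounts of 0.5 and 10, no minimum mean or one of 100, other scalings, edgeR 4.0.16, DESeq2 1.42.0, a replicate block, a fit without trend or on the compared groups, a minimum log2 fold change of 1, and leaving out each library. On simulated counts for the 24-hour comparison, with 198 tested genes among 15463 changed by 1 on the log2 scale, limma recovered 82.3% and 2.98% of its calls were false. In the data 68.5% of genes tested were called at 24 hours, a far larger share than was changed in the simulation. These rates therefore do not carry over to the calls reported above. R was 4.3.3 and Python 3.11.15.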

Additional observations from a re-analysis of the deposited data

Results flagged for a closer look

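The AZD5153 effect differed between 24 and 48 hours for 9 of the 10 genes by the test of the difference itself (limma, adjusted p under 0.05 over all genes tested), against 24.5% of all genes (14.4% higher and 10.1% lower at 48 hours). It was lower at 48 hours by a log2 difference of −1.52 for *ATF3*, −1.35 for *IER2*, −1.28 for *EGR1*, −1.12 for *JUNB*, −1.11 for *FOSB*, −1.07 for *FOSL1*, −0.75 for *FOS* and −0.37 for *FOSL2*. For *JUN* it was higher, by 0.66. The *FOSB* difference did not pass under 6 of the alternatives (adjusted p from 0.0516 to 0.0723), nor did that of *FOS* with quantile normalization (−0.45, adjusted p = 0.0926). The DMSO libraries differed between the times as well: *FOS* and *EGR1* were lower at 48 than at 24 hours in both treatments, and *ATF3* rose in DMSO while its AZD5153 change did not pass.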

How the results depend on the processing

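With a minimum log2 fold change of 1, the members called numbered 5 at 24 hours, 2 at 48 hours, 4 on the mean of both times and 2 for DMSO over time, in place of 9, 7, 9 and 8, where 26.5%, 25.4%, 25.6% and 3.72% of all genes passed the same rule. Leaving out 1 library at a time gave 9 to 10 members called at 24 hours, 5 to 7 at 48 hours, 9 to 10 on the mean of both times, 8 to 10 for the difference between times, 6 to 8 for DMSO over time and 7 to 8 for AZD5153 over time. The sign turned for values that had not passed. At 48 hours *FOSB* was at −0.14 and *JUNB* at −0.14 with scaling to equal totals, and without 1 library they ranged from −0.0845 to 0.156 and from −0.00424 to 0.0811. For AZD5153 over time *FOSL2* ranged from −0.0551 to 0.00455 and *ATF3* from −0.247 to 0.0216 without 1 library. *HSP90AA1* at 24 hours, a called value, was at −0.12 with quantile normalization. Scaling to equal totals moved the median of all genes by −0.12 at 24 hours and −0.17 at 48 hours. At 24 hours 4340 genes were then higher and 6293 lower in place of 5287 and 5392, and at 48 hours 3896 and 6511 in place of 5159 and 5294 (4653 and 7077 in place of 5885 and 5934 on the mean of both times, 1760 and 1893 in place of 2254 and 1575 for the difference, 3126 and 2440 in place of 2551 and 3015 for DMSO over time), and *IER2* on the mean of both times then did not pass (0.17, adjusted p = 0.136). *FOSL1* and *IER2* at 48 hours also did not pass in limma without trend (adjusted p = 0.0738 and 0.0719), nor *IER2* with quantile normalization (−0.20). Of the alternative values for members, 1355 kept direction and side of the threshold, 38 no longer passed, 12 newly passed and 9 changed sign. Of other immediate early, AP-1, MAPK, target and heat shock lists, 1 count moved by over 1.5 times: 4 other basic leucine zipper factors were called at 48 hours with a minimum mean of 100, where fewer genes are tested, in place of 8. With the replicate number as a block, 9 members were called at 24 hours, 7 at 48 hours, 9 on the mean of both times, 9 for the difference, 7 for DMSO over time and 7 for AZD5153 over time, and *JUNB* in DMSO over time did not pass (0.34, adjusted p = 0.061). Whether the numbers pair the libraries is not known. Same-numbered libraries correlated at −0.15 to 0.04 over 18 pairs, and libraries with different numbers at −0.11 to 0.15. Of the 12 libraries, 4 correlated best with their own number. These values gave no sign of pairing but cannot exclude it. The cause of these changes was not tested. The counts limit *FOSB*, *ATF3* and *FOS* in DMSO most, with under 60 normalized counts in some groups.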
